A study of Mus musculus with 20 samples.

Results

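Regions carrying H3K27ac, the acetylation of lysine 27 on histone H3 that marks active enhancers and promoters, were compared between the nose-named and the jaw-named peak lists of the mouse face at e15.5. The 3 lists come from ChIP-seq of freshly dissected wild-type (WT) tissue with mixed cell types, with 1 library for each facial region and stage and no replicate. The region in the name of each deposited list, which is also written into its peak names, differs from the tissue on its sample label. The nose-named list is labelled mandibular process, the md-named list is labelled maxillary process, and the mx-named list is labelled nose. The comparison followed the names of the lists, with md read as mandibular and mx as maxillary, and the labels are stated wherever a direction is drawn. Overlapping peaks of the 3 lists were merged into 24700 regions, of which 6719 were held by the nose-named list only and 123 by both jaw-named lists only; the 10 lists of the whole series merged into 42346 regions. The 7 lists of e11.5 and e13.5, in which name and label give the same region, served as references: the medial nasal plate, the lateral nasal plate and the e13.5 nose (nasal, 3 libraries), and the mandibular and maxillary processes of both stages (jaw, 4 libraries).

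The face is built from neural crest cells that settle in prominences around the mouth, and each prominence keeps its own set of homeobox and basic helix-loop-helix factors. In the mandibular process, endothelin signalling turns on the Dlx5 and Dlx6 pair, which in turn activates Hand2, while Pitx1 marks the proximal mandible. The frontonasal region, from which the nose forms, depends on the Alx genes, with Pax3, Pax7 and Six2. The maxillary process uses Dlx1 and Dlx2 without Dlx5, and the oral jaw mesenchyme uses Lhx6 and Lhx8. The width of acetylated domains at such genes was used to set the e15.5 lists beside the earlier prominences.

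The sequences below show where the regional peaks lie, each as the 250 bases before a gene's start from RefSeq (GRCm38.p6, the build called mm10) or as the central 300 bases of a region, 5′ to 3′. Of 9 regional genes looked for in the RefSeq promoter table, 5 were matched, and Pitx1, Alx1, Alx4 and Dlx5 were not among them. Capitals mark matches, on either strand, to an E-box bound by HAND and TWIST factors (CAGATG), a homeodomain site (TAATTA), a paired homeodomain dimer (TAAT, 3 bases of any kind, ATTA) or a SOX site (ACAATGG). The Hand2 start was inside a peak of the md-named list only (chr8:57320733-57320982, plus strand).
Hand2: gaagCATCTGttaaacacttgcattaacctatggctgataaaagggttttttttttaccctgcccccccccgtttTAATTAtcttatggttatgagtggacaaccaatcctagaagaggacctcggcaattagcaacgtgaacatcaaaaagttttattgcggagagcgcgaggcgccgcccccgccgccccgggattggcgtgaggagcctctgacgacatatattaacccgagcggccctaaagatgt
The Lhx8 start was inside a peak in both jaw-named lists and in no peak of the nose-named list (chr3:154330561-154330810, minus strand).
Lhx8: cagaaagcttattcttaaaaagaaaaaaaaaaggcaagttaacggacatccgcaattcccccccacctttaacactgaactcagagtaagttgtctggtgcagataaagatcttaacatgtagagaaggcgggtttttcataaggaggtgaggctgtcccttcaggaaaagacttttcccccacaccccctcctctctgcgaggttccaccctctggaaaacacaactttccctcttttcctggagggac
The Six2 start lay in the gap between 2 adjoining peaks of the nose-named list (chr17:85688255-85688504, minus strand).
Six2: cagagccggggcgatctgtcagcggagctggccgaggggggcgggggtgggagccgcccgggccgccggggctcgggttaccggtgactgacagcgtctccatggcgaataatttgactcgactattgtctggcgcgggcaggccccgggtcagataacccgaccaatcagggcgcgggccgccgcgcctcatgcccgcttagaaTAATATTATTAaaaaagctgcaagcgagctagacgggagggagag
The Pax7 start was inside a peak of the nose-named list only (chr4:139832969-139833218, minus strand).
Pax7: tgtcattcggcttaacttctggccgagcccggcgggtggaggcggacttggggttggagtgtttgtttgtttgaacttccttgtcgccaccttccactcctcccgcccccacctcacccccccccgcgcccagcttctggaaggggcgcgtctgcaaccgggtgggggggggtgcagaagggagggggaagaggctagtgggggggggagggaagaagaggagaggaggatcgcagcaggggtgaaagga
The region beside Dlx2 is a distal member of the both-jaw-named class, and the one beside Alx4 a distal member of the nose-named class (centres at chr2:71541849-71542148 and chr2:93617717-93618016, plus strand).
Dlx2 region: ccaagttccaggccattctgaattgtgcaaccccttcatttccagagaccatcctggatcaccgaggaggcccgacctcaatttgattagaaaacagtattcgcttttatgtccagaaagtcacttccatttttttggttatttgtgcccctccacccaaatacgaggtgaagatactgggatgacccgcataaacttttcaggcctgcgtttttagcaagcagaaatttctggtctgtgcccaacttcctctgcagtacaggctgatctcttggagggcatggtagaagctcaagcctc
Alx4 region: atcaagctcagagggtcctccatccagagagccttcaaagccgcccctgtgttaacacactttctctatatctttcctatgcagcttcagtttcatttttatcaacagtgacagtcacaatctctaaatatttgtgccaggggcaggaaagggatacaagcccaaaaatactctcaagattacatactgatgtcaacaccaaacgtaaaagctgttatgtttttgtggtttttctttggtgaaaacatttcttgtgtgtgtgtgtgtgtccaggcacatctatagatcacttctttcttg
The Hand2 window held 1 E-box and 1 homeodomain site, the Six2 window held 1 paired homeodomain dimer, and the others held none of the 4 motifs. Among 32851 RefSeq windows of the same length, 14.4% held the E-box, 4.84% the homeodomain site, 0.463% the dimer and 3.02% the SOX site. Of the central 300 bases of all 12745 distal e15.5 regions, 25.2%, 6.83%, 0.353% and 4.17% held them. The dimer can overlap the homeodomain site, and a match describes a sequence and not a binding site.

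The 3 lists differed in yield, which bears on every comparison between them. The nose-named list held 19817 peaks on the chromosomes used, the md-named list 16572 and the mx-named list 7728, against 6571 to 25941 in the references. The mx-named list was the thinnest, since 23.7% of its peaks were shorter than 500 bp (6.82% in the nose-named and 5.68% in the md-named list) and 45.6% reached a −log10 q of 2, against 68.9% and 67.9%. Distal peaks, those with no annotated start site within 1 kb, made up 43.9%, 40.7% and 36.1% of the nose-named, md-named and mx-named lists. The main comparisons are also given at equal yield, with the 6571 peaks of lowest q-value taken from every list. The number of reads behind the lists is not given in the sources used here, and intervals below are exact Clopper-Pearson 95% limits that cover counting error only.

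Regions in the nose-named list only made up 27.2% of all merged e15.5 regions, and those in both jaw-named lists only made up 0.498%. The md-named list alone held 3443 regions (13.9%) and the mx-named list alone 1721 (6.97%). Regions shared by the nose-named and md-named lists were the most frequent class, at 7041, followed by the nose-named class and by the 5405 regions found in all 3 lists. The md-named and mx-named lists shared few regions that the nose-named list lacked. Without the mx-named list, 3566 regions were in the md-named and not in the nose-named list, and 6967 were in the nose-named and not in the md-named list. At equal yield, the nose-named class fell to 1009 regions and the both-jaw-named class rose to 308, and 1969 regions were then in the mx-named list alone. The sizes of the classes thus moved with the number of peaks taken from each list.

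**Figure D1:**
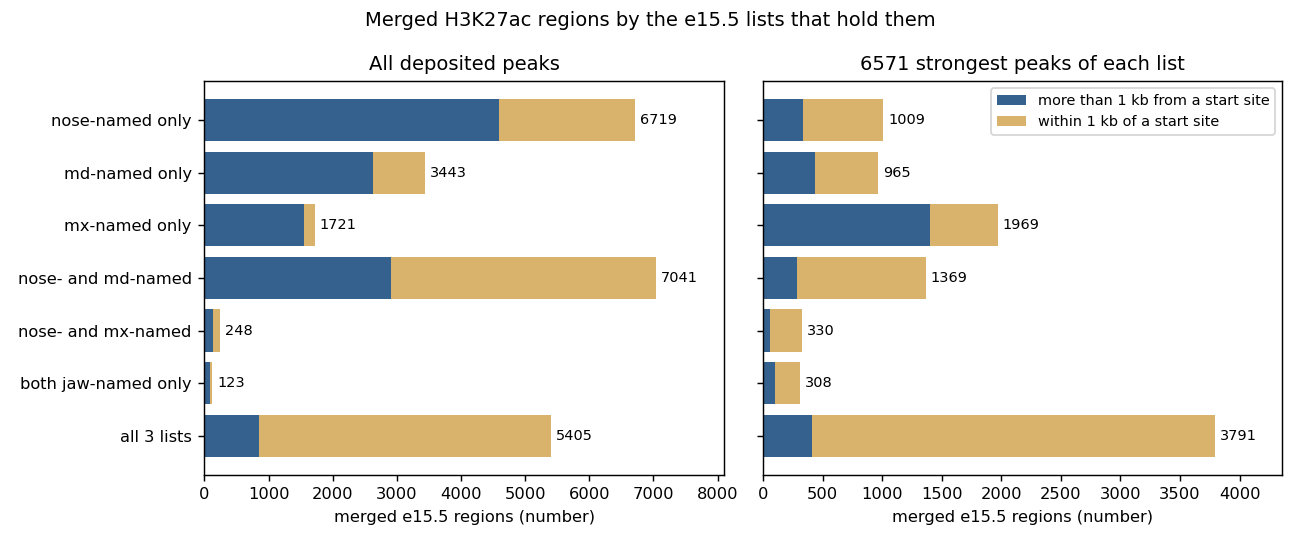
Number of merged e15.5 regions (horizontal axis) in each combination of the 3 lists (vertical axis), with distal regions in blue and regions within 1 kb of a start site in tan; left, all deposited peaks, right, 6571 peaks from each list. The nose-named class holds 6719 regions with all peaks and 1009 at equal yield, while the both-jaw-named class goes from 123 to 308.

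Of the mandibular genes, Hand2 and Pitx1 had broad peaks in the md-named list and none in the nose-named list. Gsc had only narrower md-named peaks and likewise none in the nose-named list. Hand1, Dlx3 and Dlx4 were broader in the nose-named list. Hand2, the basic helix-loop-helix factor of the distal mandible, had no peak in the nose-named list within 100 kb of its start, 2 peaks with a summed width of 40291 bp in the md-named list, and a lone peak of 238 bp in the mx-named list, far from the start. In the references, the summed width was 29703 bp in the e11.5 mandibular process and 27170 bp in the e13.5 mandibular process, and the other 5 lists had no peak there. The md-named list and both mandibular references therefore stood apart from the other 7 lists at this gene, with no overlap. The peak over the Hand2 start was 29625 bp wide in the md-named list (chr8:57309304-57338928, fold enrichment 4.47, −log10 q 6.08), the widest peak of that list. It was 14500 bp in the e11.5 and 16373 bp in the e13.5 mandibular process. At equal yield the 29625 bp peak remained, and the nose-named list still had none.

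Pitx1, a homeobox gene of the mandible and hindlimb, gave the same order. Its start was covered by a peak of 13703 bp in the md-named list (chr13:55824064-55837766, fold enrichment 3.34), of 11041 bp in the e11.5 mandibular process and of 14447 bp in the e13.5 mandibular process, and by no peak in the other 7 lists. Within 100 kb, the nose-named and mx-named lists and both maxillary references had no peak, and the nasal references had 551 to 1822 bp. At equal yield the md-named list lost this peak too, so the Pitx1 difference rests on peaks of moderate strength. Gsc, a homeobox target of endothelin signalling in the mandible, had 4410 bp in the md-named list and none in the other 2 lists of e15.5. The md-named peaks were 2668 and 1742 bp wide, near the median of that list (1849.5 bp). Its width in the references was between 0 and 9734 bp, with nasal and jaw lists overlapping. At equal yield no e15.5 list had a peak near Gsc. The mandibular references then kept 8969 and 9257 bp, and the medial nasal plate 2116 bp.

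Dlx5 and Dlx6, neighbours that share their windows, were acetylated in 2 of the e15.5 lists. Summed widths within 100 kb of Dlx5 were 9349 bp in the nose-named, 15903 bp in the md-named and 0 bp in the mx-named list. In the references they were 24702 and 17357 bp in the mandibular processes of e11.5 and e13.5, 0 and 4013 bp in the maxillary processes, 11860 and 1600 bp in the medial and lateral nasal plates, and 16024 bp in the e13.5 nose. The e13.5 nose thus lay close to the e13.5 mandibular process, and Dlx5 did not order the e15.5 lists as sharply as Hand2. The Dlx5 start was covered in the nose-named list (3629 bp) and the Dlx6 start in the md-named list (4360 bp). Over the whole list of 10 mandibular genes, 9 of the 12 regions nearest to a member were in the md-named list only, against 13.02% of all 22306 regions with a protein-coding start within 100 kb. A single region, near Dlx6, was in the nose-named list only, and none was in both jaw-named lists. Hand1, Dlx3 and Dlx4, with 4058, 8706 and 11651 bp in the nose-named and 2797, 3208 and 5862 bp in the md-named list, were broader in the nose-named list, Nkx3-2 had 1847 and 1646 bp, and Edn1, the endothelin ligand itself, had no peak in any e15.5 list.

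The frontonasal genes described here, except Fgf8, had their broadest peaks in the nose-named list. Alx1, a homeobox gene needed for the midface, had a summed width of 38810 bp in the nose-named, 6181 bp in the md-named and 6487 bp in the mx-named list. The references held 40294 bp in the e13.5 nose, 26334 and 24577 bp in the medial and lateral nasal plates, 0 and 5044 bp in the e11.5 mandibular and maxillary processes, and 3825 and 20023 bp in those of e13.5. The nose-named list fell within the range of the nasal references and the jaw-named lists within that of the jaw references, and the 2 ranges did not overlap. The peak over the Alx1 start measured 27009 bp in the nose-named list (chr10:103010506-103037514, fold enrichment 6.15), the widest of that list, against 6181 and 4949 bp in the md-named and mx-named lists.

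Six2, a homeobox gene of frontonasal and palatal mesenchyme, had 29768 bp in 6 peaks of the nose-named list and no peak in either jaw-named list. The nasal references held 23063 to 34057 bp and the jaw references 0 to 9676 bp. The 3 regions nearest to Six2 were all in the nose-named class, and the nose-named peaks ended at 85688218 and resumed at 85688508 on chromosome 17, on either side of the start region printed above. Pax7, the paired-box factor of nasal and muscle precursors, had 7845 bp in the nose-named, 2996 bp in the md-named and 0 bp in the mx-named list. Its nasal references held 4853 to 28721 bp and its jaw references 0 to 1836 bp, so the md-named width lay between the groups, and the start was covered in the nose-named list and the nasal references alone among the 10 lists. The Pax7 peaks were weak (−log10 q 2.43 over the start), and none remained at equal yield.

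Alx4 differed less between the lists. The Alx4 start was covered in all 10 lists, with 10467 bp in the nose-named (chr2:93640787-93651253), 7085 bp in the md-named and 7849 bp in the mx-named list, and with fold enrichments of 7.06, 3.93 and 3.47. The nasal references had 13798 to 14440 bp over the start and the jaw references 6829 to 8281 bp, so the nose-named width lay between the groups and both jaw-named widths lay within the jaw range. In the whole window, 19902, 7085 and 7849 bp were held by the nose-named, md-named and mx-named lists, against 53297 to 56329 bp in the nasal and 8142 to 12779 bp in the jaw references. Pax3, with 24794, 9274 and 9802 bp, and Sp8, with 2280 bp in the nose-named list alone, were also highest in the nose-named list. Fgf8, the epithelial growth factor, was not, with 7654, 8135 and 3553 bp. Of the 20 regions nearest to the 8 frontonasal genes, 14 were in the nose-named class, against 26.8% of all regions near a protein-coding gene, and none was in the md-named list only or in both jaw-named lists only.

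**Figure D2:**
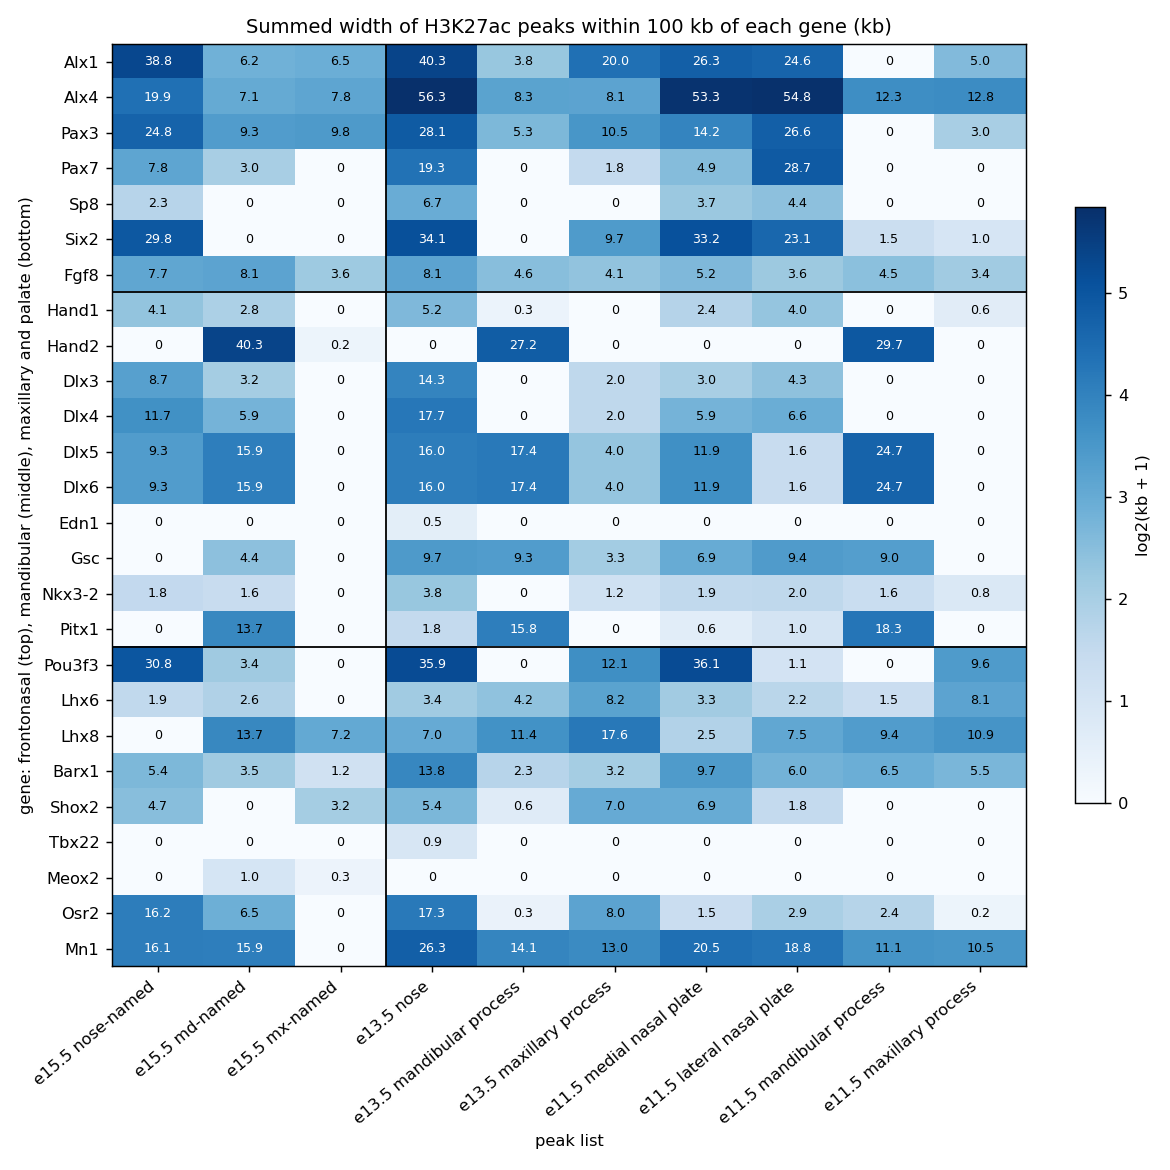
Summed width of peaks (kb, written in each cell, colour on a log2 scale) within 100 kb of regional genes (rows) in the 10 lists (columns). Hand2 and Pitx1 are broad in the md-named list and both mandibular references, while Alx1 and Six2 are broad in the nose-named list and the 3 nasal references.

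The genes used in the maxillary process and palate divided between the lists. Lhx8, a LIM homeobox gene of the oral jaw mesenchyme, had no peak in the nose-named list, 13676 bp in the md-named and 7246 bp in the mx-named list, and a peak over its start in all 7 references. Its 2 regions were both in the jaw-named class, which made it, with Dclk2 and Lrrk1, a gene with 2 such regions and, with 14113 bp, the one with the largest summed width. The Lhx8 start region of 10785 bp (chr3:154324420-154335204, exons and introns of Lhx8) was the widest of the class. The references held 9366 to 17608 bp near Lhx8 in the jaw and 2528 to 7461 bp in the nasal lists. The md-named list thus lay within the jaw range, the mx-named list within the nasal range and the nose-named list below both. At equal yield the nose-named list again had none, with 10348 and 7246 bp in the other 2.

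Dlx2, which patterns the maxillary and mandibular processes, held another member of this class, a region of 5322 bp (chr2:71539338-71544659) at a distance of 1291 bp from the start. It was found in the mandibular and maxillary processes of e11.5 and the mandibular process of e13.5, and in none of the nasal references. The peaks behind it were weak, with a −log10 q of 1.51 in the md-named and 1.53 in the mx-named list. Pou3f3, a POU factor of the maxillary process, instead had 30776 bp in the nose-named, 3435 bp in the md-named and 0 bp in the mx-named list; in the references it was broadest in the medial nasal plate (36059 bp) and the e13.5 nose (35931 bp). Osr2, a palate factor, had 16162, 6452 and 0 bp and Shox2 had 4694, 0 and 3208 bp in the same order. Lhx6 (1890, 2632 and 0 bp), Barx1 (5360, 3464 and 1219 bp) and Mn1 (16141, 15876 and 0 bp) were close between the nose-named and md-named lists, Meox2 had 985 and 262 bp in the md-named and mx-named lists, and Tbx22 had no peak. Of the 18 regions nearest to the 9 genes, 7 (38.9%) were in the nose-named class, 5 (27.8%) in the nose-named and md-named lists together, and 2 in both jaw-named lists only, against 26.8%, 29.5% and 0.457% of all regions near a protein-coding gene.

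**Figure D3:**
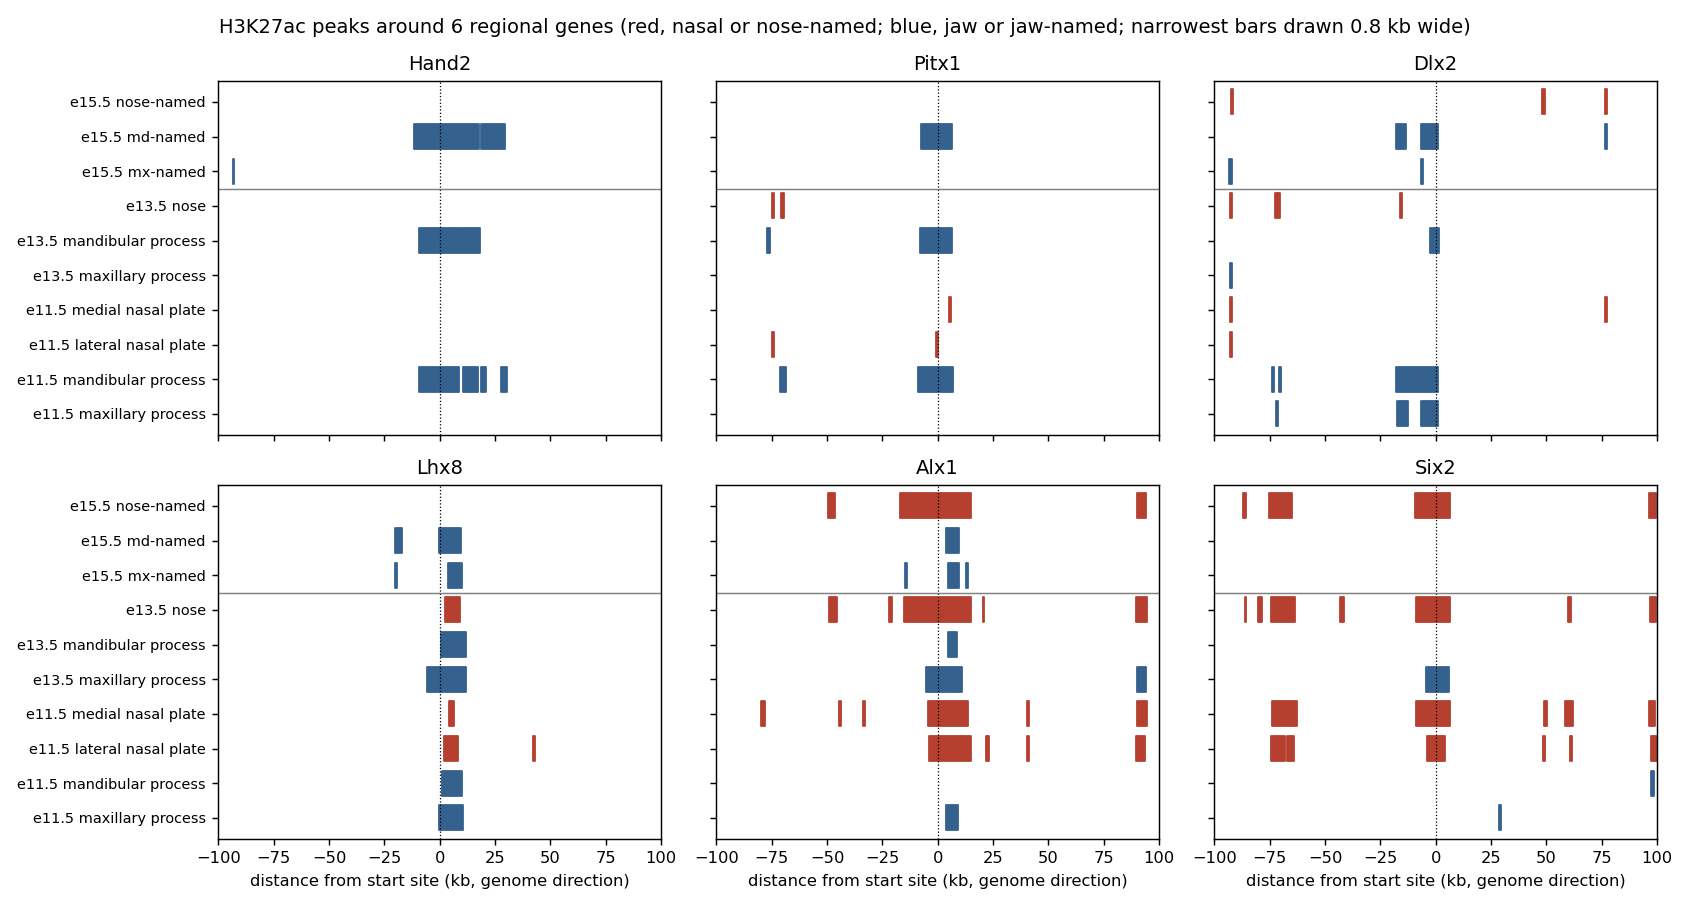
Peaks (bars) from 100 kb before to 100 kb after a start site of 6 genes, in genome direction, with 1 row for each list; red, nasal or nose-named, blue, jaw or jaw-named, and peaks under 0.8 kb drawn 0.8 kb wide. The md-named row matches the mandibular rows at Hand2 and Pitx1, the nose-named row matches the nasal rows at Alx1 and Six2, and the nose-named row is empty at Hand2, Pitx1 and Lhx8.

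At Hand2, Pitx1, Alx1 and Six2, the nose-named and md-named lists differed from the earlier libraries of the tissue on their labels. The list labelled mandibular process, which is the nose-named list, had no peak within 100 kb of Hand2 or Pitx1, where both earlier mandibular libraries had domains of 14500 bp or more and 11041 bp or more over the start. The list labelled maxillary process, the md-named list, had the Hand2 and Pitx1 domains, which neither earlier maxillary library had. The list labelled nose, the mx-named list, had no peak at Six2 or Pax7 and 6487 bp at Alx1, against 34057, 19254 and 40294 bp in the e13.5 nose. The mx-named list was the thinnest at e15.5 and the e13.5 nose the longest reference. At equal yield the e13.5 nose held 18127 bp at Six2 and 31982 bp at Alx1, against 0 and 4949 bp in the mx-named list. At Pax7 neither then had a peak, so that difference did not remain. With all peaks, at Hand2 and Pitx1 the md-named list, and at Alx1 and Six2 the nose-named list, went with the references of its name. At equal yield the nose-named list kept 6115 bp at Six2. The lateral nasal plate then had no peak there and the e11.5 mandibular process 1470 bp, so the nasal and jaw ranges overlapped. Other regional genes were less clear. At Pax7 the md-named list (2996 bp) lay above the whole jaw range. At Dlx5 the nose-named and md-named widths (9349 and 15903 bp) lay within both the nasal range and the jaw range. At equal yield no e15.5 list had a peak near Dlx5. The mandibular references of e11.5 and e13.5 then kept 24702 and 14019 bp, and the other references had none, so the md-named list did not go with them. At Alx4 the nose-named width (19902 bp) lay between the ranges. At equal yield it was 10467 bp, within the jaw range (8142 to 12779 bp) and below the nasal range (13798 to 37513 bp). Hand1, Dlx3 and Dlx4 were broader in the nose-named list, and at Pitx1 no md-named peak remained at equal yield. The mx-named list was less clear. Its summed widths at Alx1 and Pax3 lay within the jaw ranges of 0 to 20023 bp and 0 to 10529 bp, and below the nasal ranges, which began at 24577 and 14241 bp. At equal yield this held at Alx1. Its 9802 bp at Pax3 then lay within both the jaw range (0 to 9886 bp) and the nasal range (9446 to 17873 bp). At Lhx8, in contrast, it lay within the nasal range and below the jaw range, though at equal yield the nasal references had no peak there. At equal yield its highest Jaccard index, a measure of shared regions given with the whole lists, was with the e13.5 nose (0.159, against 0.132 for the e13.5 maxillary process). The same was true of the nose-named and md-named lists. With all peaks the mx-named list had its highest index with the e13.5 maxillary process (0.152). Whether libraries, files or dissected tissues were exchanged was not tested, and with 1 library for each tissue a name and a library cannot be told apart.

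Genes of other tissues also divided between the lists. Over all 22306 regions near a protein-coding gene, 26.8% were in the nose-named class, 13.02% in the md-named list only, 29.5% in the nose-named and md-named lists together and 23.7% in all 3 lists. Of the 29 regions nearest to 10 cartilage genes, 24 (82.8%) were in the nose-named class and none in a jaw-named list without the nose-named one, and all 10 genes had their largest summed width there. Col2a1, the main cartilage collagen, had 31033, 6370 and 4837 bp in the nose-named, md-named and mx-named lists, Acan, the cartilage proteoglycan, had 17203, 0 and 663 bp, Sox5 had 34253, 864 and 0 bp and Col9a1 had 15145, 1971 and 1702 bp. At equal yield these widths were 8322, 4998 and 4837 bp at Col2a1, 5119, 0 and 0 bp at Sox5, 0 bp in all 3 lists at Acan, and 0, 0 and 436 bp at Col9a1, so the differences at Acan and Col9a1 did not remain. Sox5 also held the widest region of the nose-named class (15601 bp). Skeletal muscle genes lay on the other side, with 9 of 16 regions (56.2%) in the md-named list only and none in the nose-named class. Myog, Acta1, Myh3 and Mef2c, named here after their values were seen, had 2 such md-named regions each and Tnnt1 had 1. In summed width, the nose-named and md-named lists had 3390 and 5948 bp at Myog and 7643 and 9937 bp at Mef2c. They had 4938 and 6784 bp at Myh3, 7442 and 9621 bp at Tnnt1, and 6597 and 6098 bp at Acta1. At equal yield Myog (0 and 2997 bp), Mef2c and Acta1 were wider in the md-named list, and Myh3 and Tnnt1 in the nose-named list. Myod1, Myf5 and Myf6 had at most a peak of 828, 560 and 560 bp in any e15.5 list. In bulk tissue, a larger share of a cell type and more acetylation per cell cannot be told apart. Housekeeping genes were shared, with 9 of 12 regions (75%) in all 3 lists and none in the nose-named class.

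Bone genes were near these shares of all regions, with 4 of 14 regions (28.6%) in the nose-named class and 5 (35.7%) in the nose-named and md-named lists together. Alpl, the phosphatase of mineralising bone, had 3 of its 4 regions in the nose-named class and Runx2, the master factor of osteoblasts, 1 of 5. Genes of tooth and hair placodes had 10 regions, of which 2, both near the receptor gene Edar, were in the nose-named class and 3 in the md-named list only.

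The nose-named class was spread over 4013 genes, and 95 of them had 5 or more such regions. The most regions were nearest to Zfhx3, a zinc finger homeobox gene, with 11 of its 15 e15.5 regions in the class. All 11 were distal, and 7 also had a peak in the e13.5 nose. Next came 2010111I01Rik with 10 of 22. Prdm16, a factor of palate and bone, had 9 of 9, and Fgfr2, the fibroblast growth factor receptor of skull sutures, 9 of 17. Cacna2d3 and Farp1 had 9 of 16 each, Rab11fip4 9 of 13 and Mbnl2 9 of 19. Tns1 had 8 of 16, Apbb2 8 of 10, Tcf7l1 8 of 17 and Rai14 7 of 14. The nose-named class made up 26.8% of all regions near a protein-coding gene, and these genes were ranked by their count in it. After Sox5, the widest regions of the class lay over Pou3f3 (11257 bp), Prdm16 (10524 bp), Fezf1 (10351 bp, chr6:23245181-23255531) and Pax9 (10041 bp, chr12:56688903-56698943), the paired-box gene of palate and teeth. Fezf1, a zinc finger gene of olfactory neurons, and Pax9 had a peak in 2 and 3 nasal references and in no jaw reference.

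The both-jaw-named class was nearest to 99 genes, of which only Lhx8, Dclk2 and Lrrk1 had more than 1 region. Behind them came Ephb3 (6402 bp, 69760 bp away), an ephrin receptor, Dlx2, Parvb (4722 bp), Prtg (4465 bp), Map4k4 (3984 bp), Dnm3 (3946 bp), Ubash3b (3753 bp), Sik3 (3735 bp) and Rnaseh2b (3611 bp), with 1 region each. Of all e15.5 regions nearest to each gene, the class held 2 of 2 at Lhx8, 2 of 13 at Dclk2 and 2 of 8 at Lrrk1. The named genes with 1 such region had between 2 (Parvb) and 32 (Dnm3) e15.5 regions in all. The wider of the 2 regions of the class nearest to Dclk2 (6598 bp) lies inside Lrba and had a peak in all 7 references. The class therefore held regions that the earlier nasal libraries also carried.

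Peaks behind the classes differed in strength. In the nose-named list, the 6719 peaks of its own class had a median fold enrichment of 2.89 and 37.1% reached a −log10 q of 2, against 5.13 and 96.3% for its peaks in regions of all 3 lists. In the md-named list, the peaks of the both-jaw-named class had a median fold enrichment of 2.83, and in the mx-named list of 3.28, where only 19.05% reached a −log10 q of 2 and the median width was 664.5 bp. The 1721 regions in the mx-named list alone had a median width of 301 bp, and 86.7% of the peaks behind them were under 500 bp. In the nose-named class 68.3% of regions were distal (interval 67.1 to 69.4%) and in the both-jaw-named class 73.2% (64.4 to 80.8%), which overlap. Of the distal regions, 44.9% and 47.8% were intergenic.

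Sequence composition was close between the classes. The GC content of distal regions was 47.4% in the nose-named, 45.7% in the both-jaw-named and 46.2% in the md-named class, and 43.4% in the mx-named class. The CAGATG E-box, counted on both strands, occurred 0.868 times per kb in distal regions of the nose-named class, 1.13 times in the both-jaw-named class and 1.02 times in the md-named class, against 0.936 over all distal e15.5 regions. The CAGCTG E-box bound by MYOD occurred 0.651, 0.694 and 0.801 times per kb. The SOX motif occurred 0.139, 0.154 and 0.150 times per kb. Only 24 of the 6719 regions of the nose-named class, distal and proximal, were nearest to the listed cartilage genes. A density over the whole class therefore cannot show how many SOX motifs those regions hold. The homeodomain site occurred 0.237, 0.374 and 0.290 times per kb, and 0.405 times in the mx-named class, where the GC content was lowest. These are descriptions of letters in 4586, 90, 2624 and 1553 distal regions, and whether base composition or width set them was not tested.

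The distal regions of each class were looked up in the references. Of the 4586 distal regions of the nose-named class, 51.7% (50.2 to 53.1%) had a peak in the e13.5 nose, 26.0% in the medial and 24.6% in the lateral nasal plate, and 2.46 to 6.28% in the 4 jaw libraries. Of the 90 of the both-jaw-named class, 54.4% (43.6 to 65.0%) had a peak in the e13.5 nose, 33.3% and 31.1% in the nasal plates, 15.6% in the e11.5 mandibular process and 7.78% in each of the other 3 jaw libraries. Both classes were thus found more often in the nasal lists, which are also the longest of the references. In the md-named list only, 28.8% of 2624 distal regions were in the e13.5 nose, and in the mx-named list only, 5.80% of 1553. No reference had a peak in 43.7% of the distal nose-named, 33.3% of the both-jaw-named, 61.4% of the md-named and 91.2% of the mx-named class.

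**Figure D4:**
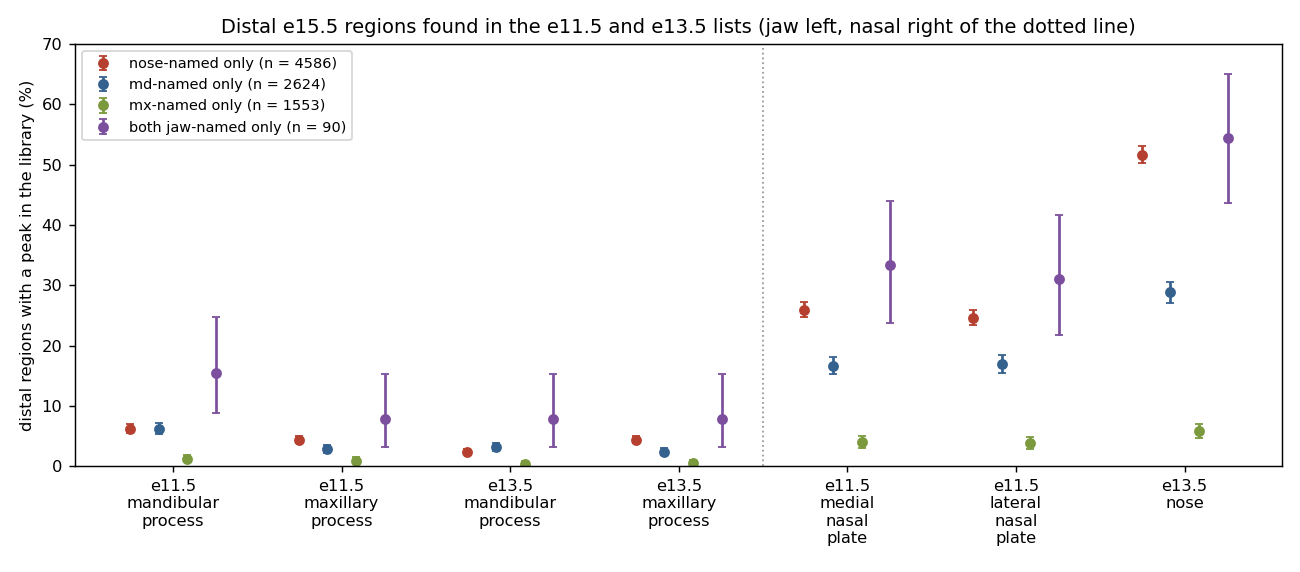
Share of the distal regions of 4 classes (%, points with exact 95% intervals) that have a peak in each of the 7 earlier libraries. The nose-named class reaches 51.7% and the both-jaw-named class 54.4% in the e13.5 nose, and the mx-named class is at most 5.80% in all 7.

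To set the classes against each other, the share of the nose-named class was divided by that of the both-jaw-named class in each reference, on a log2 scale. The log2 ratio was −0.26 ± 0.16 (SD, n = 3) in the nasal and −1.15 ± 0.41 (SD, n = 4) in the jaw references, and the groups did not overlap. The difference of 0.89 had p = 0.0286 in a two-sided exact permutation test over 35 assignments, the smallest p that this design allows. With all peaks, every nasal reference held more peaks than every jaw reference, so nasal or jaw origin and number of peaks cannot be told apart in it. All 7 ratios were below 0, so the shift was relative, and only 7 to 49 of the 90 jaw-named regions stood behind each value. With the number of nasal libraries kept within each stage, p was 0.0556 in the exact test, again the smallest possible. At equal yield the difference was 1.08 (exact p = 0.0571). Grouped by the labels, with the mx-named list against the other 2, the difference was 0.90 (exact p = 0.0857) and at equal yield it was −0.39 (exact p = 0.543). With all peaks, the ratio thus had the same sign under both groupings, and the difference between the groupings was not tested. For the nose-named against the md-named list alone, it was 0.39 (exact p = 0.4), and 0.94 (exact p = 0.0286) at equal yield.

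Regions fixed by the references alone gave a view that did not use the e15.5 lists. A nasal set held the 4885 distal regions with a peak in at least 2 nasal and no jaw library, and a jaw set the 18 with a peak in at least 2 jaw and no nasal library. The nose-named list had a peak in 35.7% of the nasal set (34.3 to 37.0%) and in 1 of the 18 jaw regions, the md-named list in 23.1% (21.9 to 24.3%) and in 7 of 18, and the mx-named list in 3.99% (3.46 to 4.58%) and in 1 of 18. The log2 ratio of the shares was 2.68 for the nose-named, −0.75 for the md-named and −0.48 for the mx-named list. The limits of these ratios, from the intervals of the shares, were 0.33 to 8.04, −1.55 to 0.49 and −2.98 to 5.03, so the sign was not settled for the md-named and mx-named lists. The jaw references had fewer peaks than the nasal ones (6571 to 10753 against 20492 to 25941). At equal yield, with 167 nasal and 196 jaw regions, the ratios were 0.94, −1.01 and −1.39. Without the e11.5 mandibular process or the e13.5 nose the ratio of the nose-named list was −0.46 or −0.73, and without the e13.5 mandibular process that of the md-named list was 0.06.

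A stricter set held regions with a peak in both mandibular references and in no other reference. There were 5 with distal and proximal regions together, and 4 of them had a peak in the md-named list, against none in the nose-named and none in the mx-named list. They comprised 2 adjoining regions at Hand2, both overlapped by the same 29625 bp md-named peak described above, so these are not separate loci. The other regions found were an intronic region of Kalrn (chr16:34080714-34083195) and an intergenic region 101846 bp from Apc. The one not found at e15.5 was 306955 bp from Plxna2. At equal yield this set had 75 regions, and 17, 28 and 15 of them were in the nose-named, md-named and mx-named lists. In contrast, the 404 distal regions common to all 7 references were nearly all found in the nose-named (97.8%) and md-named (96.3%) lists, and in 62.4% in the mx-named list.

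The similarity of whole lists was measured with the Jaccard index, the shared distal regions over all distal regions of both lists. The nose-named list was closest to the e13.5 nose (0.356), as was the md-named list (0.260), and the mx-named list was closest to the e13.5 maxillary process (0.152). At equal yield all 3 lists were closest to the e13.5 nose, with 0.444, 0.350 and 0.159 for the nose-named, md-named and mx-named lists. The mx-named list, which is labelled nose, then had 0.132 with the e13.5 maxillary process. Its overlap coefficient, the shared regions over the smaller list, was higher with the nose with all peaks (0.395 against 0.346 for the maxillary process). At equal yield it was higher with the maxillary process (0.561 against 0.437 for the nose). Both measures of the mx-named list thus changed order with the number of peaks taken. For the e13.5 mandibular process, the indices of the nose-named, md-named and mx-named lists were 0.113, 0.139 and 0.123. The mean over the 3 lists was 0.216 when each was paired with the e13.5 list of its own name and 0.122 when paired by label, a difference of 0.0937. At equal yield the means were 0.282 and 0.225. With the overlap coefficient the order turned, with 0.537 by name and 0.589 by label, and at equal yield it was 0.572 and 0.542. These indices move with the number of peaks, and no test was possible with 1 library for each tissue.

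**Figure D5:**
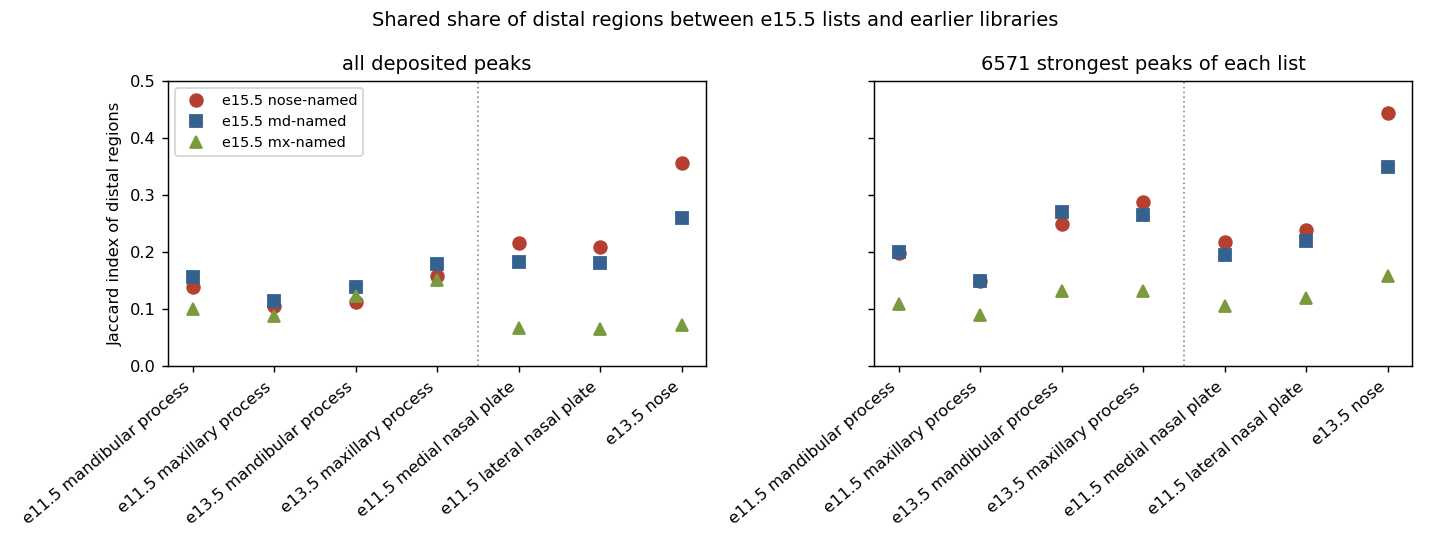
Jaccard index of distal regions (vertical axis) between each e15.5 list (colours and markers) and the 7 earlier libraries (horizontal axis, jaw left and nasal right of the dotted line); left, all peaks, right, equal yield. The nose-named list has its highest index with the e13.5 nose, 0.356 and 0.444.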

How the data were processed

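H3K27ac ChIP-seq peak lists of 10 libraries were used, 1 for each facial region and stage, and 10 input samples were not analysed here. Per the submitters' processing notes, the authors used BWA 0.7.7, SAMtools 0.1.19 and MACS2 2.2.4 with the mm10 build, and their methods describe broad peaks called against input on single-end reads. The deposited lists give for each peak a fold enrichment ratio over background, a −log10 p, a −log10 q and a score. Fold enrichment and −log10 q were used as the authors deposited them, and the score and −log10 p were not. They are relative to each list, so heights were not compared as expression. The assembled chromosomes (1 to 19, X, Y) held 144852 of 144896 peaks, and the rest were dropped. Peaks overlapping by 1 bp were merged, regions more than 1 kb from any of 132629 GENCODE M21 start sites were called distal, and each region was given to its nearest protein-coding gene within 100 kb. Motifs were counted in the reference genome with pysam 0.24.0. Computation used scipy 1.17.1, pandas 2.3.3 and numpy 2.4.6 under Python 3.11.15, with bedtools 2.31.1, and was tested on simulated lists. The exact permutation test was two-sided over the 7 earlier libraries. With 1 library for each tissue and stage, its p-value measures the spread between libraries, which differ in tissue, stage and number of peaks. Samples were grouped by label, and the e15.5 lists also by name. The members, the gene lists and the rule for named genes (all members of the 3 regional lists, up to 4 of each other list by nose-named minus both-jaw-named regions, the 12 genes with most regions and the 5 widest regions of each class) were chosen with earlier results of these data known. Values of some list members are not reported here.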

Additional observations from a re-analysis of the deposited data

How the results depend on the processing

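No paired analysis was possible because each stage and region had 1 library. The nose-named and both-jaw-named classes held 4214 and 37 regions with a −log10 q of at least 2, and 1009 and 308 at equal yield. Without the mx-named list, regions in the md-named but not the nose-named list numbered 3566. The difference between nasal and jaw references in log2 share ratio kept its sign in every alternative run but 1, and lost its call in most alternatives: it was 1.08 at equal yield, 0.74 with peaks up to 1 kb apart merged, 0.79 with distal set at 2.5 kb and 0.75 with all regions (each exact permutation p = 0.0571). It kept its call, at 1.13 (exact p = 0.0286), when presence required 25% of a region to be covered. With nasal numbers kept within stage it was 0.89 (exact p = 0.0556, the smallest possible). Leaving out each reference in turn gave 0.719 to 1.003, with an exact p of 0.1 or 0.133 where the smallest possible was 0.05 or 0.0667. Alternatives chosen after seeing the data gave 0.90 (grouped by label, exact p = 0.0857), −0.39 (by label at equal yield, exact p = 0.543), 0.39 (without the mx-named list, exact p = 0.4) and 0.94 (without it at equal yield, exact p = 0.0286). With a −log10 q of at least 2 it had no value. The log2 ratio of the nasal to the jaw set was 0.24 for the md-named and −4.24 for the mx-named list with a −log10 q of at least 2. Leaving out each reference, it ran from −0.73 to 2.26 for the nose-named list (−0.46 without the e11.5 mandibular process, −0.73 without the e13.5 nose), from −2.03 to 0.063 for the md-named list (0.063 without the e13.5 mandibular process) and from −2.74 to −0.87 for the mx-named list, and 4 such values could not be computed. The Jaccard difference between names and labels was 0.0574 at equal yield, and the overlap coefficient gave −0.0523. The cause of these changes was not tested. Read depth is not given in the sources used here, and the jaw set of 18 regions limits the set ratios.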

Other observations

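Genes of other cell types were also looked up. Of 13 regions nearest to olfactory genes, 6 (46.2%) were in the nose-named class, against 26.8% of all regions near a protein-coding gene, and 3 of them were near Sox2, a factor of sensory placodes and neural progenitors. Sox2 had a summed width of 8641 bp in the nose-named list and no peak in either jaw-named list, against 3393 to 10938 bp in the nasal and 0 to 298 bp in the jaw references. The window of Omp, the marker of mature olfactory neurons, held 6808 bp in the nose-named list, no peak in the jaw-named lists or jaw references and 755 to 1983 bp in the nasal references, with no peak over its start in any list. At equal yield Sox2 and Omp had no peak in the nose-named list, so these differences did not remain. Of the 12 olfactory genes, 5 had their largest summed width in the nose-named, 2 in the md-named and 1 in the mx-named list. Ebf2 had 1462, 6313 and 0 bp, Ebf3 had 2115, 4520 and 2471 bp and Lhx2 had 1212, 0 and 1495 bp in the nose-named, md-named and mx-named lists. Pax6 had no peak in any e15.5 list.

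Of 41 regions nearest to surface epithelium genes, 8 (19.5%) were in the nose-named class, 8 in the md-named list only and 16 (39.02%) in both of these lists, against 26.8%, 13.02% and 29.5% of all regions. Endothelial genes had 17 regions, 6 (35.3%) in the nose-named class and 4 (23.5%) in the md-named list only. Blood and macrophage genes had 6, of which 4 (66.7%) were in the nose-named class, glia and melanocyte genes had 7, of which 2 (28.6%) were, and forebrain and eye genes had 4, of which none was.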
